A study of Mus musculus with 23 samples.

Results

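Horizontal cells are the inhibitory interneurons of the outer retina, which contact photoreceptor terminals and feed back onto them. The 5 genes described here are Onecut1, Onecut2, Prox1, Lhx1 and Calb1, chosen by name as genes of this cell type out of 52143 genes in the deposited gene table. All 5 were found on the primary assembly and all 5 passed the filter on low counts in every comparison. They were followed in retinal organoids, which are retina-like tissues grown from stem cells. The organoids came from 1 clone of mouse induced pluripotent stem cells carrying the Nrl-GFP reporter, a green label for rod photoreceptors, reprogrammed from embryonic fibroblasts with inducible lentiviral factors. The groups at day 32 with FGF1 received docosahexaenoic acid (DHA; 2 libraries), linoleic acid (LA; 3 libraries) or bovine serum albumin alone (BSA; 3 libraries). The groups at day 32 without FGF1 had the same 3 media with 3 libraries each, and the groups at day 26 had the same 3 media with 2 libraries each. DHA and LA were given as BSA conjugates from day 10. FGF1 was given at 200 ng/ml from day 26, when the base medium also gained B27 and serum, so all day 32 groups share that change and no day 26 group has it. Each library holds poly(A) RNA of neural retina dissected from organoids, and the labels call the libraries biological replicates.

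In the mouse retina, Foxn4 and then Ptf1a act in progenitors that give rise to horizontal and amacrine cells, and the factors described here act after them. Onecut1 and its relative Onecut2 are cut-homeodomain factors needed for horizontal cell formation. Prox1 is a homeodomain factor that favours the horizontal fate and is also found in some amacrine and bipolar cells. Lhx1 is a LIM-homeodomain factor that sets the position of horizontal cells, and Calb1 encodes calbindin, a calcium-binding protein that marks mature horizontal cells and some amacrine and ganglion cells. In dissected tissue fewer cells of a type and less RNA per cell cannot be told apart.

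The libraries fell into 2 sets by total count. The 12 deeper libraries had 16029580 to 20510550 counts each and comprised the 6 day 26 libraries and the first and second replicates of each day 32 FGF1 group. The 11 shallower libraries, with 10405663 to 11888224 counts, were all 9 of day 32 without FGF1 and the third replicates of BSA with FGF1 and LA with FGF1. The mitochondrial share of counts was 3.02 to 4.24% in the deeper set and 5.55 to 12.5% in the shallower set. The authors left 5 of the shallower libraries out of their normalized table. Day 32 without FGF1 and day 26 therefore share no library set. Tests within a set are given first, and the 2 comparisons that cross the sets are given after them with their limit.

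Levels are given as CPM, the counts scaled to library size by TMM over the 23 libraries, and a difference was called at a Benjamini-Hochberg adjusted p under 0.05 over all genes of the edgeR quasi-likelihood fit. Within the deeper set, 3 of the 5 genes passed the test between day 32 with FGF1 and day 26. Prox1 and Lhx1 were higher at day 32 with FGF1, Onecut1 was lower, and Onecut2 and Calb1 did not pass. In that comparison 28.7% of the 20111 genes tested were called, 14.6% as higher and 14.1% as lower. Age, the change of base medium and FGF1 cannot be told apart in it. The ranges of single genes are given below, and the share of all genes whose ranges lie apart was not computed.

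**Figure D1:**
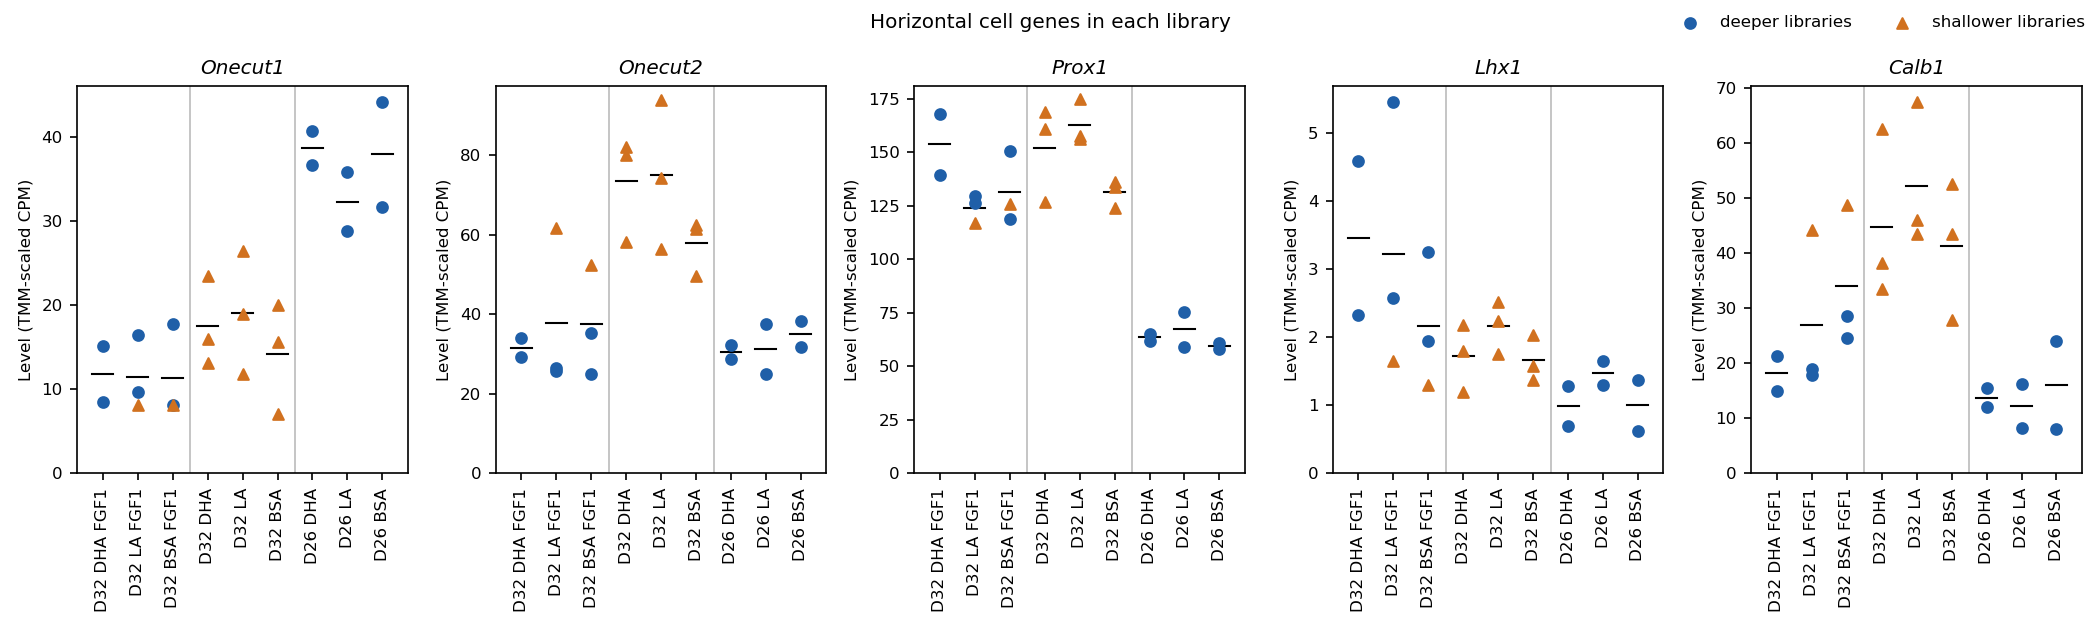
Level of each of the 5 genes in each library (vertical axis, TMM-scaled CPM, starting at 0) by group, from day 32 with FGF1 on the left over day 32 without FGF1 to day 26 on the right. Circles are deeper libraries, triangles shallower libraries, and lines group means. Prox1 lies at 118.6 CPM or more in the deeper day 32 FGF1 libraries and at 75.39 CPM or less at day 26.

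Prox1 lies on the minus strand of chromosome 1 (GRCm38, chr1:190118035-190170714). It had its lowest, median and highest level at 118.6, 134.4 and 168.0 CPM in the 6 deeper day 32 FGF1 libraries, against 57.95, 61.40 and 75.39 CPM in the 6 day 26 libraries. Every day 32 FGF1 library was above every day 26 library. The log2 difference was 1.15 (SE 0.0963, adjusted p = 1.131e-05 with edgeR), a 2.22-fold higher level. Prox1 had the smallest adjusted p of the 5 genes in this comparison, and it was called in each of the 3 media taken alone, at 1.28 in DHA, 0.97 in LA and 1.197 in BSA. Within 1 medium, the genes called as higher were 6.08% in DHA, 3.34% in LA and 4.25% in BSA, and those called as lower were 4.28% in DHA, 1.81% in LA and 2.58% in BSA. Without a single library, the genes called in both directions numbered 722 to 2316 in DHA (2083 with all), 206 to 1112 in LA (1037) and 213 to 1582 in BSA (1373). The LA value missed the threshold without day 26 LA replicate 1 (0.81) and without day 32 LA FGF1 replicate 2 (0.96).

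Lhx1 lies on the minus strand of chromosome 11 (GRCm38, chr11:84518284-84525535). Its level was the lowest of the 5 genes, at 1.939, 2.918 and 5.456 CPM (lowest, median, highest) in the deeper day 32 FGF1 libraries, against 0.6294, 1.290 and 1.654 CPM at day 26. These rest on 37 to 104 counts per library at day 32 with FGF1 and 12 to 33 counts at day 26. The ranges did not overlap, and the log2 difference was 1.56 (SE 0.312, adjusted p = 0.003206 with edgeR). In the media taken alone Lhx1 stood at 1.80 in DHA, 1.48 in LA and 1.39 in BSA, and none of these passed with 2 libraries a side (adjusted p = 0.05852, 0.1404 and 0.1588 with edgeR). The DHA value passed without day 32 DHA FGF1 replicate 1 (2.20) and with DESeq2 (1.81, adjusted p = 0.02343). All 3 passed with no filter on low counts (1.80, 1.48 and 1.38). Over all media, that fit gave far smaller adjusted p values for Onecut1, Prox1 and Lhx1 at nearly the same log2 differences.

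Onecut1 lies on the plus strand of chromosome 9 (GRCm38, chr9:74861921-74891781). It had 8.141, 12.39 and 17.71 CPM (lowest, median, highest) in the deeper day 32 FGF1 libraries, against 28.77, 36.20 and 44.16 CPM at day 26. Every day 32 FGF1 library was below every day 26 library, at a log2 difference of -1.50 (SE 0.221, adjusted p = 0.0004613 with edgeR). Onecut1 thus fell while Prox1 and Lhx1 rose in the same libraries. Taken alone it passed in DHA (-1.71, adjusted p = 0.01638 with edgeR) and in BSA (-1.53, adjusted p = 0.03504 with edgeR), and in LA it stood at -1.26 (adjusted p = 0.08331 with edgeR). These calls by medium turn on single libraries. The DHA call was lost without day 26 DHA replicate 1, day 26 DHA replicate 2 or day 32 DHA FGF1 replicate 2 (-1.61, -1.79 and -1.34). The BSA call was lost without any of 5 libraries, which were both day 26 DHA libraries (-1.53 each), both day 26 BSA libraries (-1.75 and -1.28) and day 32 BSA FGF1 replicate 2 (-1.06). The LA value passed without day 32 BSA FGF1 replicate 1 or replicate 2 (-1.26 each), with DESeq2 (-1.26) and with no filter on low counts (-1.27).

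The promoters of the 3 genes that passed this comparison are shown so that the factor that fell can be set beside those that rose. They are RefSeq sequences on GRCm38.p6, from 250 bases before to 50 bases after the annotated start, written 5′ to 3′ on the strand of the gene; for Prox1, which has 2 such starts 1312 bases apart, the upstream one is printed. Capitals mark matches to 4 motifs searched on both strands, CCAAT, the cut-domain core ATTGAT, the E-box CAGCTG and the TATA box TATAAA.
Onecut1 chr9:74861671-74861970 plus strand: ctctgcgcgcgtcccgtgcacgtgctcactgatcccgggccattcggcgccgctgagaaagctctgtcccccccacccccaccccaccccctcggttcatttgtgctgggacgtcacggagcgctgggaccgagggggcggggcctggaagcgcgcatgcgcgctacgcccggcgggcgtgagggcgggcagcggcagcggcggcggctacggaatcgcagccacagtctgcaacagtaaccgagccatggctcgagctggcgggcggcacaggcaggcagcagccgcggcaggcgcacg
Prox1 chr1:190170778-190171077 minus strand: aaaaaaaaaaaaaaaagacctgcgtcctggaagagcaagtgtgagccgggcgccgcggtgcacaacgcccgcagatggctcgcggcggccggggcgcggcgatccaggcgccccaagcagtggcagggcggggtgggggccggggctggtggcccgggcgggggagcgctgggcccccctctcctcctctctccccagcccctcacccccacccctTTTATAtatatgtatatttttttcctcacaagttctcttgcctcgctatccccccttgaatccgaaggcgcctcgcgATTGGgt
Lhx1 chr11:84525485-84525784 minus strand: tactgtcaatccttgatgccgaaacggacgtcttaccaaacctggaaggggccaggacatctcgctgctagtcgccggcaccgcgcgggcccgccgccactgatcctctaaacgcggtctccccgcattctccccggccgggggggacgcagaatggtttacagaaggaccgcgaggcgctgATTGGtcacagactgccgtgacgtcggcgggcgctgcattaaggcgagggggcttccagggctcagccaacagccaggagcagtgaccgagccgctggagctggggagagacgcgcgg
The Onecut1 window held none of the 4 motifs and had a GC content of 73.0%. The Prox1 window held TATAAA on the opposite strand from position -34 and CCAAT on the opposite strand from position 43, counted from the start base as 0, and had a GC content of 64.3%. The window at the other Prox1 start held none of the motifs. The Lhx1 window held CCAAT on the opposite strand from position -68, with a GC content of 65.7%. Of 32851 RefSeq promoter windows of this length, 37.4% held CCAAT, 7.54% ATTGAT, 16.3% CAGCTG and 13.6% TATAAA, and no motif hit overlapped another in the 3 printed windows.

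Onecut2, on the plus strand of chromosome 18 (GRCm38, chr18:64340364-64398488), stayed within the same range. It had 25.05, 27.78 and 35.25 CPM (lowest, median, highest) in the deeper day 32 FGF1 libraries, against 24.94, 31.96 and 38.44 CPM at day 26. The log2 difference was -0.12, with a 95% interval of -0.39 to 0.15 (adjusted p = 0.5117 with edgeR). That interval lies apart from the interval of its relative Onecut1, which ran from -1.98 to -1.02; the difference between the 2 genes was not tested.

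Calb1 lies on the plus strand of chromosome 4 (GRCm38, chr4:15881264-15908064). It had 14.98, 20.09 and 28.51 CPM (lowest, median, highest) in the deeper day 32 FGF1 libraries, against 7.972, 13.71 and 23.95 CPM at day 26. The ranges overlapped, and the log2 difference was 0.59 (95% interval 0.04 to 1.14, adjusted p = 0.1004 with edgeR). Day 26 BSA replicate 1, at 23.95 CPM, was the highest day 26 library, followed by LA replicate 1 at 16.25 CPM. In BSA replicate 1 the deposited gene value was 1.82 times the sum of the gene's transcript values, and 15.3% of that sum was a short retained-intron transcript. When gene values were summed from the transcript table, Calb1 had 15.27, 18.15 and 23.76 CPM at day 32 with FGF1 against 9.021, 11.10 and 13.46 CPM at day 26, with no overlap, at a log2 difference of 0.74 (adjusted p = 0.002207 with edgeR). On the deposited values Calb1 also passed without day 26 BSA replicate 1 (0.93), without day 26 LA replicate 1 (0.79), with no filter on low counts (adjusted p = 0.000508) and with DESeq2 (adjusted p = 0.04735). With no filter Onecut1 too had a far smaller adjusted p (8.98e-26 with edgeR) at nearly the same log2 difference (-1.505). Adjusted p values of that fit are thus not comparable with the others. Calb1 had its lowest adjusted p there. Over all 19 alternatives its adjusted p ran from 0.000508 to 0.2131, and it passed in 5 of them.

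**Figure D2:**
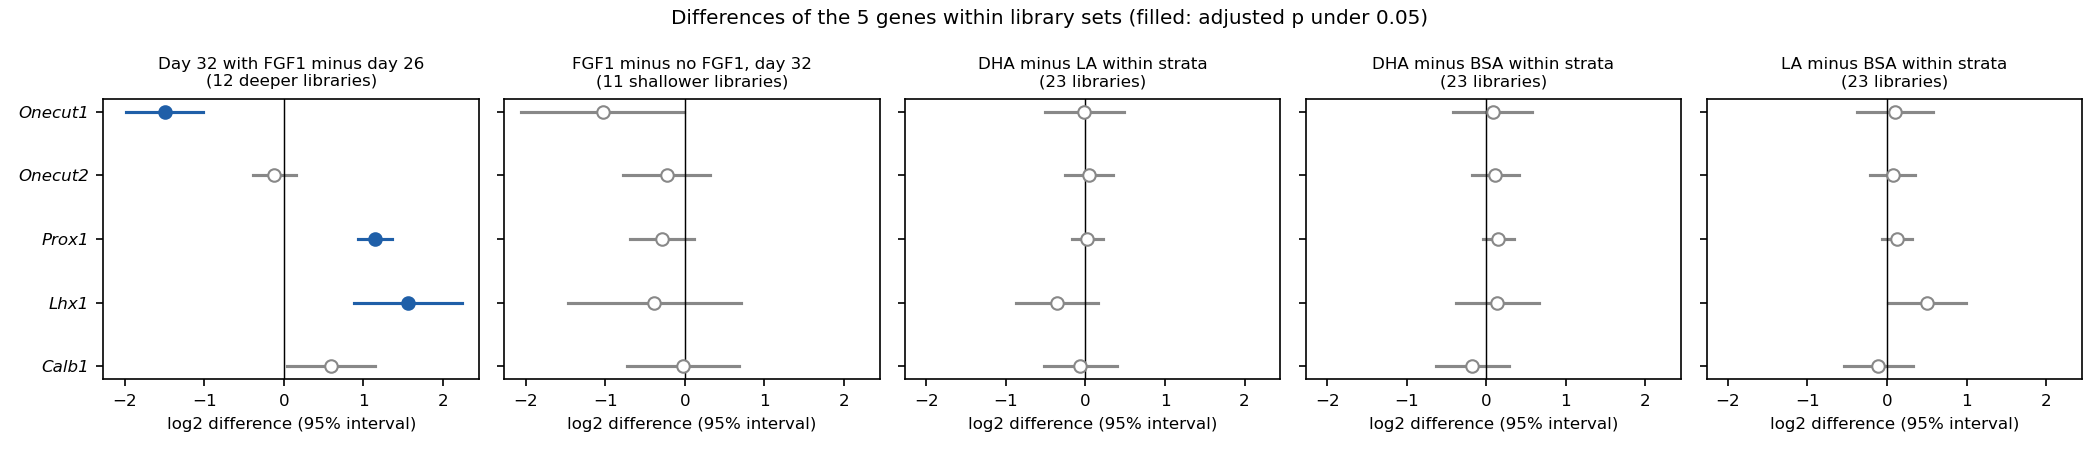
Log2 differences of the 5 genes (horizontal axis, with 95% intervals) in 5 comparisons, each written as first group minus second; filled points passed an adjusted p under 0.05. Onecut1 (-1.50), Prox1 (1.15) and Lhx1 (1.56) passed between day 32 with FGF1 and day 26, and none of the 5 genes passed for FGF1 or between media.

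Other cell types moved in the same libraries. Of the markers tested, 10 of 12 bipolar and 7 of 9 rod markers were higher at day 32 with FGF1 and 8 of 10 progenitor markers were lower. The shares over all genes tested were 14.6% higher and 14.1% lower. Bipolar markers summed to 640, 690 and 891 CPM (lowest, median, highest) in the deeper day 32 FGF1 libraries against 277, 308 and 354 CPM at day 26. Amacrine markers, of which 2 of 12 were higher and 5 lower, summed to 547, 806 and 969 CPM at day 32 with FGF1 against 800, 1020 and 1340 CPM at day 26. Ganglion markers, with 2 of 14 higher and 3 lower, summed to 317, 359 and 424 CPM at day 32 with FGF1 against 404, 473 and 592 CPM at day 26. Prox1 is also a factor of lymphatic endothelium, and 3 of the 6 markers tested of that tissue were higher, their list summing to 220, 253 and 340 CPM at day 32 with FGF1 against 163, 187 and 235 CPM at day 26. Cone markers (1 of 9 higher, 4 lower) summed to 183 to 269 CPM at day 32 with FGF1 against 511 to 977 CPM at day 26, and glial markers (5 of 10 higher, 1 lower) to 1720 to 2850 CPM against 1030 to 1550 CPM. Rod markers summed to 5080 to 9170 CPM at day 32 with FGF1 against 2440 to 3920 CPM at day 26, and progenitor markers to 208 to 340 CPM against 466 to 716 CPM. Lens markers (2 tested, neither called) stayed at 6.05 CPM or less in sum. Pigment epithelium markers (0 of 6 higher, 3 lower) summed to 8.54 to 246 CPM at day 32 with FGF1 against 9.86 to 318 CPM at day 26, and fibroblast markers (none of 7 called) to 21 to 405 CPM against 18 to 93.5 CPM. Rpe65 was the one marker at 0 in all 6 libraries of a group, at day 26. Their part in the values of the 5 genes was not tested.

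Other genes of the horizontal cell pathway were taken from a list of 30, of which 29 passed the filter on low counts. Of these, 14 were lower at day 32 with FGF1, 5 were higher and 10 did not pass, with a median log2 difference of -0.30 against 0.00 over all genes tested. Over all genes tested 14.1% were called as lower and 14.6% as higher. All 10 upstream factors of the list were lower, with a median of -0.79. The 13 genes named below follow from 2 rules, the smallest p values and a fixed choice of horizontal cell genes.

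Foxn4, a winged-helix factor of progenitors that permits the horizontal and amacrine fates, had 1.80, 2.98 and 5.21 CPM (lowest, median, highest) at day 32 with FGF1 against 20.9, 25.9 and 39 CPM at day 26. The log2 difference was -3.00 (SE 0.251, adjusted p = 1.13e-05 with edgeR). Ptf1a, the basic helix-loop-helix factor that acts after Foxn4, had a count in 2 of the 6 day 32 FGF1 libraries. It had 3 counts over those 6 libraries against 150 counts over the 6 day 26 libraries, a ratio of 0.0200 per total count (adjusted p = 0.0001721 with edgeR). The 95% counting interval was 0.00408 to 0.0595. It pools the counts of each state and leaves out the spread between libraries, unlike the other intervals given here. Atoh7, the proneural factor of ganglion cell precursors, fell by 2.05 on the log2 scale and was at 1.31 CPM or less in every day 32 FGF1 library. The early eye-field and progenitor factors Meis2 (-0.84), Pax6 (-0.59) and Meis1 (-0.46) were lower by smaller amounts, as were Otx2 (-0.74), a factor of photoreceptor and bipolar precursors, and Neurod4 (-0.67), a basic helix-loop-helix factor of differentiating neurons. Atoh7 is also on the progenitor marker list.

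Among the genes of fate, identity and function, the direction was mixed. Tfap2b, a factor of horizontal and amacrine cells, had 152, 234 and 309 CPM (lowest, median, highest) at day 32 with FGF1 against 285, 388 and 518 CPM at day 26 (log2 difference -0.75, adjusted p = 0.008368 with edgeR). Calb2, the calretinin gene that marks amacrine and ganglion cells, was lower by a log2 difference of -1.01. Gja10, the connexin of horizontal cell gap junctions, had 0.878, 1.49 and 1.99 CPM at day 32 with FGF1 against 0.484, 0.715 and 1.04 CPM at day 26 (log2 difference 1.05, adjusted p = 0.009224 with edgeR). Slc32a1, the vesicular transporter of GABA and glycine used by amacrine and horizontal cells, was higher by 0.74 (adjusted p = 0.03229 with edgeR); this call was lost in a fit of all 23 libraries (0.71) and without any 1 of 7 libraries, at 0.53 to 0.76. Sall3, a zinc-finger factor of horizontal and cone cells, was at 0.24 with a 95% interval of -0.70 to 1.19. Tfap2b, Calb2 and Slc32a1 are also on the amacrine marker list, so their values cannot be read as horizontal cells alone.

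**Figure D3:**
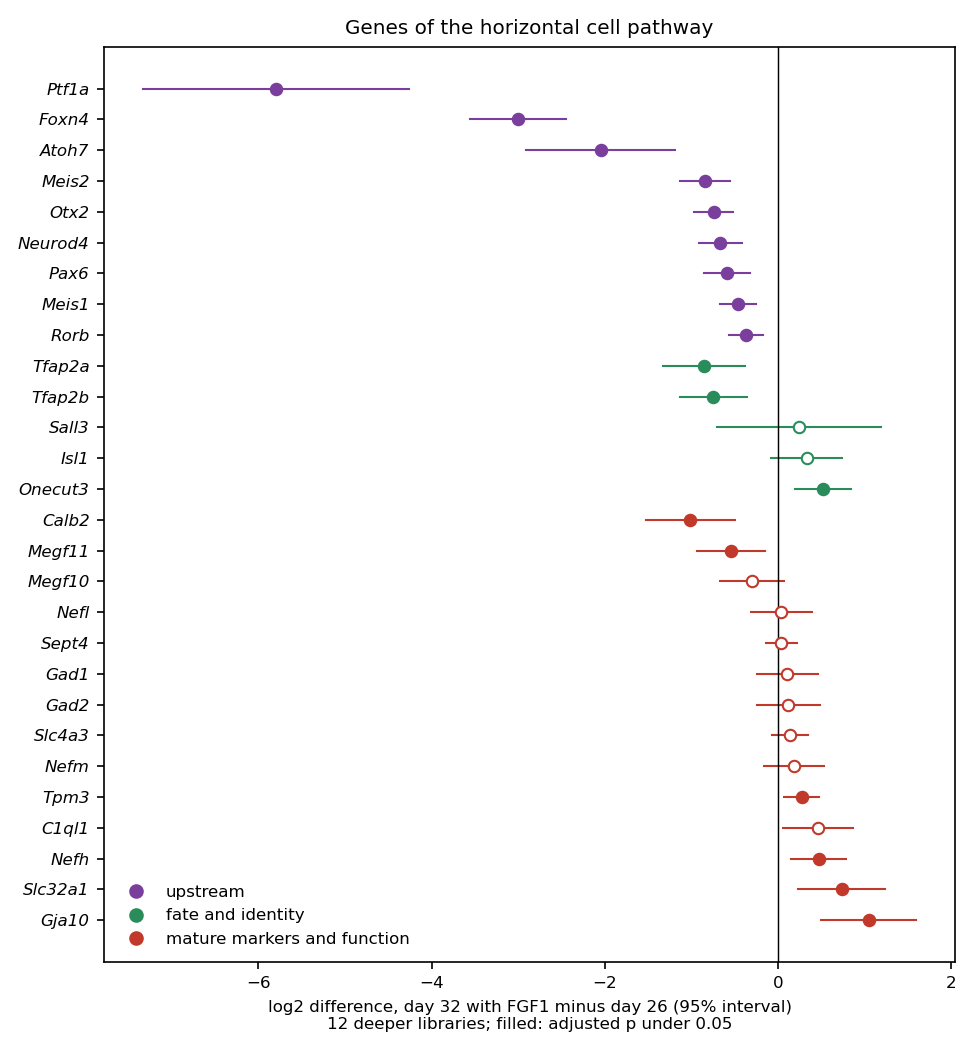
Log2 difference of 28 of the 29 horizontal cell pathway genes tested, day 32 with FGF1 minus day 26 in the 12 deeper libraries (horizontal axis, 95% intervals), by subgroup; filled points passed an adjusted p under 0.05. The 9 upstream genes plotted lie left of 0, down to Ptf1a at -5.80, and the rightmost gene is Gja10 at 1.05.

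The count of 14 lower genes stayed between 13 and 15 in all alternatives run. The count of 5 higher genes was less stable. It was 1 in a fit of all 23 libraries, 2 without day 26 BSA replicate 2, day 26 LA replicate 1 or day 26 DHA replicate 1, and 3 without day 26 BSA replicate 1, day 26 LA replicate 2, day 32 BSA FGF1 replicate 2, or either of the deeper day 32 LA FGF1 libraries.

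The difference between day 32 with FGF1 and day 26 was then compared between the media. None of the 20111 genes was called for this interaction with edgeR (0%), 720 had an unadjusted p under 0.05, and DESeq2 called 14 genes. The adjusted p was 1 for each of the 5 genes with edgeR. In both directions together, genes called within 1 medium were 10.4% in DHA (2083 genes), 5.16% in LA (1037) and 6.83% in BSA (1373). These counts turn on single libraries of the medium itself. The DHA count was 1272 without day 26 replicate 1, 722 without day 26 replicate 2 and 822 without day 32 FGF1 replicate 2. The LA count was 482 and 584 without day 26 replicate 1 or 2, and 601 and 206 without day 32 FGF1 replicate 1 or 2. The BSA count was 564 and 213 without day 26 replicate 1 or 2, and 307 without day 32 FGF1 replicate 2. Onecut2 stood at 0.06 in DHA, -0.22 in LA and -0.20 in BSA, and Calb1 at 0.41 in DHA, 0.62 in LA and 0.75 in BSA, none of them called. In BSA Calb1 passed without day 26 BSA replicate 1 (1.76), with transcript sums (1.02) and with no filter on low counts (0.74).

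On the deposited gene values, the 2 deeper replicates of the day 32 FGF1 groups differed in the same way in all 3 media. Onecut1 was lower in replicate 2, by a log2 CPM difference of -0.83 in DHA, -0.75 in LA and -1.11 in BSA. Its levels were 8.421 CPM in replicate 2 against 15.08 CPM in replicate 1 in DHA, 9.705 against 16.42 CPM in LA, and 8.141 against 17.71 CPM in BSA. Lhx1 was higher in replicate 2, at 4.588 CPM against 2.332 CPM in replicate 1 in DHA, 5.456 against 2.581 CPM in LA and 3.256 against 1.939 CPM in BSA, or 0.94, 1.04 and 0.71 on the log2 scale. These are differences between libraries of the same label. Each of them is smaller than the difference of that gene from day 26. With transcript sums Lhx1 in DHA went the other way, at 1.51 CPM in replicate 2 against 2.034 CPM in replicate 1. The deposited Lhx1 value of that replicate 2 was 3.02 times its 26 transcript counts. Lhx1 kept its direction with these sums in LA (3.305 against 2.426 CPM) and in BSA (3.388 against 2.463 CPM). At day 26 the same contrast of replicates had no common direction for Onecut1 (-0.15 in DHA, 0.31 in LA, 0.48 in BSA) or for Lhx1 (0.77, 0.32 and -0.98). What the replicate numbers share is not stated in the labels, and the tests treat these libraries as independent.

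**Figure D4:**
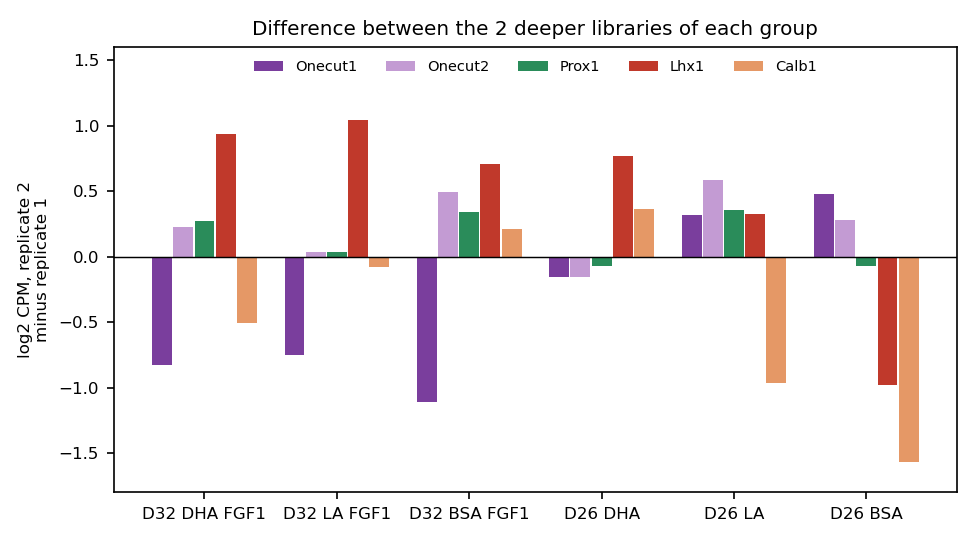
Log2 CPM of replicate 2 minus replicate 1 (vertical axis) for the 5 genes in the 6 groups that have 2 deeper libraries, day 32 with FGF1 on the left and day 26 on the right. Onecut1 lies below 0 and Lhx1 above 0 in all 3 day 32 FGF1 groups, and Calb1 has the lowest bar, -1.57, in day 26 BSA.

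FGF1 could be compared with no FGF1 at the same age only in the shallower set, where BSA and LA have 1 FGF1 library each. None of the 5 genes passed. The test covered 19484 genes, and edgeR called 0 of them (0%), with 931 at an unadjusted p under 0.05. By comparison, 19 genes passed with DESeq2 and 0 with limma voom. Onecut1 had 8.132 CPM in BSA with FGF1 and 8.143 CPM in LA with FGF1. Without FGF1 it had 7.030, 15.56 and 19.99 CPM in BSA and 11.84, 18.94 and 26.41 CPM in LA. Both FGF1 libraries were thus near the low end of the libraries without FGF1, and the log2 difference was -1.03 (95% interval -2.06 to -0.01, adjusted p = 0.8669 with edgeR). In the 5 libraries that the authors left out, 2 with FGF1 and 3 without, it was -1.07 (95% interval -1.86 to -0.28, adjusted p = 0.9993 with edgeR). Those 2 FGF1 libraries are the same as above, so this value is not independent of the first. Media were pooled in it, and DHA is present only without FGF1.

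Markers of other cell types were also summed in these libraries, and no marker of any list was called. Fibroblast markers (none of 7 tested called) summed to 283 and 298 CPM in the 2 FGF1 libraries against 25.3 to 173 CPM in the 9 without FGF1, with no overlap. Lymphatic endothelium markers (none of 6) summed to 375 and 465 CPM against 255 to 390 CPM, progenitor markers (none of 9) to 526 and 539 CPM against 300 to 565 CPM, and amacrine markers (none of 11) to 699 and 749 CPM against 680 to 1160 CPM. The progenitor and amacrine sums thus lay inside the range without FGF1. Cone markers summed to 259 and 286 CPM against 164 to 265 CPM, and glial markers to 1790 and 1870 CPM against 984 to 1820 CPM. The cone marker Opn1mw was at 0 in the 2 FGF1 libraries. No fibroblast, lymphatic, progenitor or amacrine marker was at 0 throughout either group. Their part in the Onecut1 value was not tested.

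For the other 4 genes the log2 differences between FGF1 and no FGF1 were closer to 0. Onecut2 was at -0.23 (95% interval -0.77 to 0.32), with 52.41 and 61.62 CPM in BSA and LA with FGF1 against 49.66 to 94.02 CPM in all 9 libraries without FGF1. Prox1 was at -0.29 (-0.69 to 0.12), with 125.9 and 116.9 CPM in BSA and LA with FGF1 against 124.1 to 175.1 CPM without FGF1. Lhx1 was at -0.38 (-1.47 to 0.70), on 13 and 15 counts in BSA and LA with FGF1 against 11 to 23 counts in those without. The BSA library had 3 Lhx1 reads in the transcript table, and with transcript sums the value was -1.55 (adjusted p = 0.8807 with edgeR). Calb1 was at -0.02 (-0.72 to 0.69), with 48.79 and 44.13 CPM with FGF1 against 27.78 to 67.39 CPM without. With 2 FGF1 libraries these intervals allow changes of over 1.5-fold in either direction for Lhx1 and Calb1, so a difference of that size was not detectable. The pathway list had none of its 27 tested genes called, with a median of -0.17 against -0.09 over all genes.

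The fatty acids were compared over all 23 libraries, each against libraries of the same day, FGF1 state and set, and of the same choice by the authors to keep or leave out. With edgeR 0 of 21124 genes (0%) were called in each of the 3 pairs. The DHA and LA pair had 956 genes at an unadjusted p under 0.05 and 3 called by DESeq2. The DHA and BSA pair had 414 such genes and 3 called by DESeq2, and the LA and BSA pair 639 and 4. With limma voom each pair had 0. None of the 5 genes passed in any pair.

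DHA, which has a longer chain and more double bonds than LA, was given at the same nominal concentration, and the pair gave log2 differences (DHA minus LA) of -0.02 for Onecut1 (95% interval -0.51 to 0.48), 0.04 for Onecut2 (-0.25 to 0.34), 0.02 for Prox1 (-0.18 to 0.22), -0.36 for Lhx1 (-0.87 to 0.15) and -0.07 for Calb1 (-0.52 to 0.39). The narrowest interval was that of Prox1. DHA against BSA gave 0.08 for Onecut1 (-0.41 to 0.58), 0.12 for Onecut2 (-0.18 to 0.41), 0.15 for Prox1 (-0.05 to 0.35), 0.14 for Lhx1 (-0.38 to 0.66) and -0.18 for Calb1 (-0.64 to 0.28). LA against BSA gave 0.10 for Onecut1 (-0.37 to 0.58), 0.07 for Onecut2 (-0.21 to 0.36), 0.13 for Prox1 (-0.06 to 0.32) and -0.11 for Calb1 (-0.55 to 0.33). The one interval without 0 was that of Lhx1 in LA against BSA, at 0.50 (0.01 to 0.99; adjusted p = 1 with edgeR). The 29 tested pathway genes had no call in any pair, with medians of -0.04, -0.05 and -0.05 in the order just given, against 0.02, 0.01 and 0.00 over all genes.

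Within each state, F tests over the 3 media called none of the 5 genes. They called 2 of 20111 genes at day 32 with FGF1 (0.00994%; 1017 with an unadjusted p under 0.05 and 121 with DESeq2), 0 of 19484 at day 32 without FGF1 (0%; 274 with an unadjusted p under 0.05 and 1 with DESeq2) and 0 of 20111 at day 26 (0%; 396 with an unadjusted p under 0.05, 0 with DESeq2). The count at day 32 with FGF1 was 6 and 7 without day 26 LA replicate 1 or 2, 26 and 9 without day 32 LA FGF1 replicate 1 or 2, and 5 without day 32 DHA FGF1 replicate 1. At day 32 without FGF1, Prox1 had 126.6, 161.0 and 168.6 CPM in DHA, 156.0, 157.7 and 175.1 CPM in LA and 124.1, 133.8 and 136.2 CPM in BSA. All LA libraries were above all BSA libraries there (unadjusted p = 0.2546 for any medium, adjusted p = 0.9999 with edgeR). Onecut2 had 58.26, 80.20 and 82.19 CPM in DHA, 56.53, 74.37 and 94.02 CPM in LA and 49.66, 61.43 and 62.46 CPM in BSA, with overlapping ranges.

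Across library sets the same labels gave different levels. In BSA with FGF1 the shallower replicate 3 differed from the mean of the 2 deeper replicates by 0.82 for Onecut2 and 0.88 for Calb1 on the log2 CPM scale, and in LA with FGF1 by 1.24 and 1.26. Calb1 was at 44.13 CPM in the shallower LA FGF1 library against 18.89 and 17.84 CPM in the deeper pair, and Onecut2 at 61.62 CPM against 25.76 and 26.39 CPM. Lhx1 and Onecut1 were lower in the shallower library, by log2 differences of -0.88 and -0.56 in BSA with FGF1 and -1.13 and -0.62 in LA with FGF1. Prox1 differed least, at -0.09 and -0.13. Shifts of this size were common, since the median absolute difference over all genes was 1.00 in BSA with FGF1 and 1.04 in LA with FGF1.

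These shifts bear on the comparisons that cross the sets. Day 32 without FGF1 against day 26 gave pooled log2 differences of -1.11 for Onecut1, 1.09 for Onecut2, 1.23 for Prox1, 0.69 for Lhx1 and 1.72 for Calb1, and called all but Lhx1, which passed without day 26 BSA replicate 1 (0.90), with transcript sums (1.27, adjusted p = 0.006476 with edgeR) and in the 18 kept libraries (0.80, adjusted p = 0.0404 with edgeR). Of all genes 60.9% were called, 29.5% as higher and 31.4% as lower. Library set and state cannot be told apart in it. Onecut2 had 49.66, 62.46 and 94.02 CPM (lowest, median, highest) at day 32 without FGF1 against 24.94, 31.96 and 38.44 CPM at day 26, and Calb1 27.78, 43.50 and 67.39 CPM against 7.972, 13.71 and 23.95 CPM. The difference between sets within BSA and LA with FGF1 was taken from the deposited gene values. It had the same sign as this pooled value for Onecut1, Onecut2 and Calb1. It had the opposite sign for Prox1 and Lhx1. For Prox1 the pooled value of 1.23 was close to the value of 1.15 found inside the deeper set. Its level barely moved between the sets in deposited CPM, but not on other scales. With transcript sums the shallower BSA FGF1 library was higher, at 140.6 CPM against 104.2 and 134.5 CPM in the deeper pair. In TPM that library was lower, at 28.37 TPM against 39.79 and 50.7 TPM. The LA FGF1 libraries shifted likewise, at 133.6 CPM against 114.2 and 110.5 CPM, and at 26.02 TPM against 41.66 and 44.1 TPM. Library set and state thus cannot be told apart for Prox1 either.

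Day 32 with FGF1 against day 32 without FGF1 over all libraries called Onecut2 (-0.94) and Calb1 (-0.85) as lower, among 45.3% of genes called, 27% as higher and 18.3% as lower. Within the shallower set the values of these 2 genes were -0.23 and -0.02. The Calb1 call was lost without day 32 DHA FGF1 replicate 2 (-0.77). The pooled values of Onecut1 (-0.54, adjusted p = 0.09352), Prox1 (-0.13, adjusted p = 0.3335) and Lhx1 (0.66, adjusted p = 0.06822) did not pass with edgeR. Onecut1 passed without day 32 BSA replicate 3 (-0.65) or BSA FGF1 replicate 1 (-0.71), and Lhx1 without BSA FGF1 replicate 3 (0.74) or LA FGF1 replicate 3 (0.76). Lhx1 also passed in the 18 kept libraries (0.74, adjusted p = 0.04922 with edgeR) and with DESeq2 (0.68, adjusted p = 0.04985). With transcript sums Onecut1 (-0.82, adjusted p = 0.01198 with edgeR) and Prox1 (-0.38, adjusted p = 0.009807 with edgeR) passed as lower. Lhx1 changed sign to -0.13 with the same sums, so no direction is given for it.

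The transcript table showed a second difference between the sets. In 4 of the 5 genes a minor transcript held a higher median share of the reads in the deeper libraries than in the shallower ones. The share over all genes with several transcripts was not computed, so this is not shown to be particular to these genes. The noncoding Onecut1-202 held a median of 14.2% of the gene's transcript counts in the deeper libraries (0 to 21.1%) and 0% in the shallower ones (at most 2.78%). The shorter coding transcript Prox1-201 held a median of 15.4% in the deeper libraries (3.77 to 20.4%) and at most 0.399% in the shallower ones, while the main transcript Prox1-202 held 83.1% in the deeper and 99.9% in the shallower ones. The retained-intron transcript Calb1-202 held a median of 4.79% in the deeper libraries (0.415 to 15.3%) and at most 1.01% in the shallower ones, so their ranges overlapped. Lhx1-204 held a median of 9.07% in the deeper libraries (0 to 26.7%) and 0% in the shallower ones. The Lhx1-204 shares are near the floor, at a median of 3.23 counts per deeper library (0 to 7.71). For Onecut2 1 of 2 transcripts in the files was matched to the annotation, so no share is given.

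**Figure D5:**
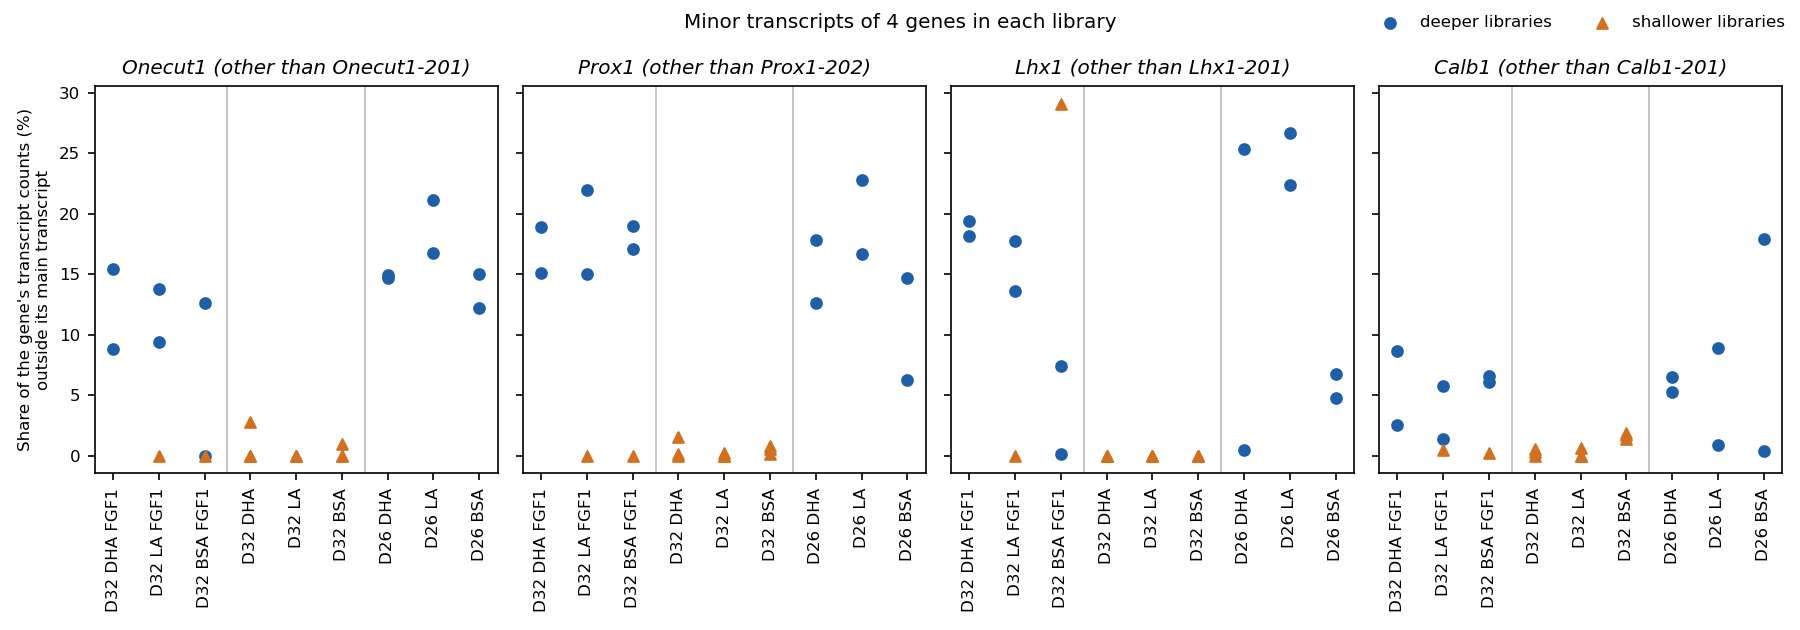
Share of each gene's transcript counts outside its main transcript (vertical axis, percent) in each library, with day 32 FGF1 groups on the left and day 26 on the right. Circles (deeper) reach 21.1% for Onecut1, and triangles (shallower) stay at 2.78% or below for Onecut1; the one high triangle, for Lhx1, is BSA with FGF1 replicate 3, with 3 reads.

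The deposited gene value differed from the transcript sum along the same division. Its ratio to the sum of the gene's transcript values had a median of 1.19 in the deeper and 0.870 in the shallower libraries for Onecut1, 1.12 and 0.895 for Prox1, 1.16 and 0.874 for Calb1 and 1.2 and 0.791 for Lhx1. The ranges lay apart for Prox1 (0.986 to 1.21 against 0.866 to 0.922) and overlapped for Onecut1, Calb1 and Lhx1. This division was not computed over all genes. In BSA with FGF1 replicate 3 the Lhx1 ratio was 4.42. With transcript sums the differences between day 32 with FGF1 and day 26 kept their calls for Onecut1, Prox1 and Lhx1.

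On the TPM scale, levels were summed over all matched transcripts of a gene, noncoding ones included. On this sum the order of Onecut1 and Prox1 differed between day 26 and day 32. In the deeper day 32 FGF1 libraries Prox1 had the highest median, at 44.3 TPM (39.8 to 55.3), followed by Calb1 at 12.3 TPM (9.5 to 17.9), Onecut1 at 8.26 TPM (5.57 to 12), Onecut2 at 4.01 TPM (3.71 to 5.22) on its 1 matched transcript and Lhx1 at 2.23 TPM (1.54 to 3.65). The ranges of Calb1 and Onecut1 overlapped, and those of the other neighbours did not. At day 32 without FGF1, in the shallower set, the order was the same, with Prox1 at 39.4 TPM (32.5 to 51.2), Calb1 at 24.1 TPM (14.6 to 31.7), Onecut1 at 8.6 TPM (4.2 to 13.2), Onecut2 at 5.85 TPM (3.37 to 8.07) and Lhx1 at 1.21 TPM (0.742 to 1.42). There the ranges of Onecut1 and Onecut2 overlapped. At day 26 Onecut1 stood at 20.8 TPM (15.2 to 26.4) and Prox1 at 17.3 TPM (15.5 to 24.1), with overlapping ranges and Onecut1 the higher of the pair in 4 of 6 libraries. Calb1 followed at 6.98 TPM (4.67 to 12), Onecut2 at 3.91 TPM (1.31 to 5.27) and Lhx1 at 0.732 TPM (0.387 to 1.2), with an overlap between Calb1 and Onecut2. Onecut2 rests on its 1 matched transcript in every state. The deposited gene value was 2.23 times that transcript in day 26 LA replicate 1, which had 1.307 TPM. In the shallower set this ratio reached 2.21. The Onecut2 levels may thus be too low in such libraries, and its ranks and overlaps are limited by this. The Onecut1 values include the noncoding Onecut1-202, which held 12.2 to 21.1% of the gene's transcript counts at day 26. It has 1211 bases against 3957 in the coding Onecut1-201, so it weighs more in TPM than in counts. The order of Onecut1 and Prox1 at day 26 holds for this sum only. It is not an order of their coding transcripts, which were not ranked alone.

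The genes with the most similar pattern were found by the root mean square difference of log2 CPM over the 23 libraries, each gene centred within each library set, which removes level differences between the sets. For Prox1 they were Trim2 (0.157), Stx3 (0.163) and Ppp2r5c (0.170), against a median of 0.569 over 12527 genes. Onecut2, which varied little, was closest to Kansl1l (0.133), Nhlrc2 (0.137) and Nfxl1 (0.148; median 0.428). Calb1 was closest to Spock3 (0.255), Kcnip4 (0.287) and Arfgef3 (0.290; median 0.585). Lhx1 was closest to Lhfpl3 (0.318), Nt5e (0.324) and Ppp1r42 (0.325; median 0.747), with Prox1 at rank 21 (0.358). Onecut1 was closest to Hist2h2be (0.442), Zfhx3 (0.442) and Tfap2a (0.455; median 0.825), and Tfap2a is itself on the pathway and amacrine lists. Among the 5 genes, Onecut1 and Lhx1 were farthest apart (1.28).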

How the data were processed

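Poly(A) RNA was sequenced from 23 organoid libraries in 9 groups. The submitters' processing notes name GRCm38.p6, edgeR, kallisto 0.45.0 and Trimmomatic 0.36; their order is not given in the sources used here. The authors deposited a gene table and a transcript table of expected counts for all 23 libraries. They also deposited a signal table of normalized CPM for 18 libraries, of which only gene names and the list of kept libraries were used. The deposited gene values are not plain sums of transcript values: 12.3% of values of genes with several transcripts lay within 1% of their sum, although the totals per library are equal. How they were made is not given in the sources used here.

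Expected counts were rounded, filtered with filterByExpr, normalized by TMM and tested by quasi-likelihood in edgeR 4.0.16 under R 4.3.3, with 1 mean per group, or with strata and medium terms for the fatty acids. Residual degrees of freedom were 6 in the deeper, 6 in the shallower and 16 in the strata fit. P-values were adjusted by Benjamini-Hochberg over all genes tested and the threshold was 0.05. Standard errors and 95% intervals come from the F statistic and are approximate. Log2 CPM used a prior count of 2. Totals above 14000000 counts defined the deeper set. Transcripts were matched to GENCODE M21 (134456 of 136550), and 27 symbols listed as dates were restored by gene ID. The fits were tested on simulated data. Figures were drawn with matplotlib 3.10.9 in Python 3.11.15.

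Alternatives were RLE size factors, no filter, DESeq2 1.42.0, limma 3.58.1 voom, a replicate block, a fit over all 23 libraries, the 18 kept or 5 left-out libraries, leaving out 1 library at a time and, chosen after seeing the data, transcript sums. The 5 genes, the 30-gene pathway list and the marker lists were chosen with earlier results of these data known. Named pathway genes were the 10 with the smallest p between day 32 with FGF1 and day 26 plus Foxn4, Ptf1a, Tfap2b, Sall3, Gja10 and Slc32a1; 1 of them is counted in the list but not reported here by name or plotted. No promoter is shown for Calb1 and Onecut2. The similarity search was limited to genes whose mean log2 CPM reached 1 and left out mitochondrial genes and those with clone-type names or none.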

Additional observations from a re-analysis of the deposited data

How the results depend on the processing

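Alternatives of the 5 genes other than leaving out libraries gave 467 values, of which 437 kept direction and call, 19 gained a call, none lost one and 11 changed sign. Leaving out 1 library gave 1095 values, with 1045 unchanged in direction and call, 11 that lost a call, 11 that gained one and 28 that changed sign; no value with a changed sign was called on either side. The calls of Onecut1, Prox1 and Lhx1 between day 32 with FGF1 and day 26 held in all 19 alternatives run, at -1.73 to -1.34, 1.093 to 1.201 and 1.35 to 1.78. The cause of the changes below was not tested.

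Without the filter on low counts, genes called were 342 for the interaction with medium, 622, 14 and 204 for any medium at day 32 with FGF1, at day 32 without FGF1 and at day 26, 7 for FGF1 in the shallower set, and 228, 81 and 169 for DHA against LA, DHA against BSA and LA against BSA. Between day 32 with FGF1 and day 26, Onecut1 had an adjusted p of 8.98e-26 with edgeR in that fit, against 0.0004613 with the filter. The log2 differences were nearly the same, at -1.505 and -1.499. Calls of the fit with no filter are thus not comparable with those of the other fits. DESeq2 gave 14 for the interaction, 121 and 1 for any medium at day 32 with and without FGF1, 19 for FGF1, and 3, 3 and 4 for the media. A fit of all 23 libraries gave 2860 instead of 5773 for day 32 with FGF1 against day 26, 0 for any medium at day 32 with FGF1 and 2 for FGF1. Within DHA, LA and BSA alone, day 32 with FGF1 against day 26 gave 3306, 2361 and 2665 genes with no filter, against 2083, 1037 and 1373, and DESeq2 gave 1736 in LA and 2178 in BSA. Leaving out single libraries gave 722 to 2316, 206 to 1112 and 213 to 1582 there, 2 to 26 for any medium at day 32 with FGF1 and 0 to 1 for LA against BSA. Leaving out a shallower FGF1 library ends the FGF1 contrast, so it was not run.

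Same-numbered libraries correlated at -0.123 to 0.351 over 15 pairs of groups in the deeper set, 6 over 0.1, and at -0.337 to 0.593 over 9 correlations in the shallower set, 5 over 0.1. All 3 pairs among the day 32 FGF1 groups (0.157 to 0.351) and all 3 values for DHA and LA without FGF1 (0.262 to 0.593) were over 0.1. Because others were not, the numbers were not taken to pair the libraries. The tests between day 32 with FGF1 and day 26 treat the day 32 FGF1 libraries as independent. Where same-numbered ones share a factor, the SEs and adjusted p of these tests are too small. The replicate block fits 1 shift per replicate number over both days, so it cannot take up a factor present at day 32 only. With the replicate block, 6045 genes were called for day 32 with FGF1 against day 26, 14 for any medium at day 32 with FGF1, 43 for FGF1, and 1 each for DHA against BSA and LA against BSA. Of 70 values of the 5 genes, 2 changed their call under the block, Lhx1 in DHA (1.78, adjusted p = 0.03711 with edgeR) and Onecut1 in LA (-1.32, adjusted p = 0.04874 with edgeR), which then passed.

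Signs changed as follows. For FGF1 in the shallower set Calb1 stood at 0.030 with voom, 0.039 with transcript sums, 0.000 in the fit of all 23 libraries, 0.289 in the 5 left-out libraries and -0.127 to 0.101 without single libraries. For DHA against LA, Onecut1 stood at 0.049 with voom, 0.016 with transcript sums and 0.013 in the 18 kept libraries, and without single libraries Onecut1 ranged over -0.126 to 0.133, Onecut2 -0.018 to 0.142, Prox1 -0.022 to 0.068 and Calb1 -0.164 to 0.030. For DHA against BSA, Lhx1 was -0.154 with transcript sums, and without single libraries Onecut1 ranged over -0.052 to 0.215, Lhx1 -0.018 to 0.240 and Calb1 -0.283 to 0.006. For LA against BSA, Calb1 was 0.063 with transcript sums and Onecut2 -0.031 in the 18 kept libraries, and without single libraries Onecut1 ranged over -0.030 to 0.219, Onecut2 -0.019 to 0.130 and Calb1 -0.209 to 0.052. Between day 32 with FGF1 and day 26, Onecut2 without single libraries ranged over -0.047 to 0.159 in DHA, -0.474 to 0.078 in LA and -0.448 to 0.011 in BSA. The pooled FGF1 value of Lhx1 was -0.125 with transcript sums. In the pathway list Sept4 was -0.015 with transcript sums, and without single libraries the values were -0.017 to 0.855 for Sall3, -0.011 to 0.083 for Sept4, -0.014 to 0.273 for Gad1, -0.002 to 0.271 for Gad2 and -0.103 to 0.148 for Nefl.

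Lhx1 rests on 11 to 104 counts per library, so its values carry the widest intervals. Onecut2 could not be recomputed from transcripts. The intervals cover the spread between libraries of 1 stem cell clone, and 2 to 3 libraries a group limit them. Day 32 without FGF1 has no library in the deeper set, and DHA with FGF1 none in the shallower set, so FGF1 in DHA and the change from day 26 without FGF1 cannot be told apart from the library set.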
